A study of Mus musculus with 8 samples.

Results

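The 10 genes described here encode brakes on the MAP kinases: the dual-specificity phosphatases Dusp1, Dusp2, Dusp4, Dusp5, Dusp6, Dusp10 and Dusp16, the Spred proteins Spred1 and Spred2, and the Sprouty protein Spry1. They were picked by name, and all 10 were found among the 20888 genes of the deposited expression table. The cells were T-ALL blasts, that is, cells of acute lymphoblastic leukaemia of the T lineage that had been sorted from the blood of mice. There were 4 control libraries with wild-type Kdm6b and 4 libraries labelled as homozygous mutant for Kdm6b, a histone H3 lysine 27 demethylase gene. Both groups carried the Vav-CRE transgene, which is active in blood-forming cells. The labels do not say how the leukaemia was started, nor whether the 4 libraries of a group came from separate mice, so the spread behind the p-values may be technical. Levels are CPM as deposited, a gene's reads scaled to a fixed library total, after the constant of 0.0001 in each value was subtracted.

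MAP kinase cascades carry signals from antigen and growth factor receptors through RAS and RAF to the kinase ERK, and from stress to the kinases JNK and p38. Active ERK, JNK and p38 induce transcription of many of their own inhibitors. The phosphatases remove phosphate groups from the activated kinases, while Spred and Sprouty proteins act further upstream, at the step between receptors, RAS and RAF. In T cells these genes are known for limiting the response to the T cell receptor, and in leukaemia for setting how much ERK signal a cell carries.

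Promoter sequence was available for 9 of the 10 genes from RefSeq (build GRCm38.p6), as windows of 250 bases before to 50 bases after the gene start. Those of Dusp1, Dusp5 and Spred2 are shown over the 250 bases before the start, 5′ to 3′ on the strand of the gene, since Spred2 and Dusp1 had the lowest p of the members below and Dusp1 and Dusp5 hold the rarest motifs. Capitals mark matches to the cyclic AMP response element (CRE, TGACGTCA), its short form (TGACG, or CGTCA when read on the other strand) and the serum response element.
Dusp1, chr17:26508473-26508722, minus strand: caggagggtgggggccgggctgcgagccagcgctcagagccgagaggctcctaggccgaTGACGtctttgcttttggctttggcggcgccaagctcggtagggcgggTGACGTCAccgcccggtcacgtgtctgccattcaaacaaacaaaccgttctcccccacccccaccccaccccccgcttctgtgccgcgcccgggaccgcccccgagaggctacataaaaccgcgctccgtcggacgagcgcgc
Dusp5, chr19:53528895-53529144, plus strand: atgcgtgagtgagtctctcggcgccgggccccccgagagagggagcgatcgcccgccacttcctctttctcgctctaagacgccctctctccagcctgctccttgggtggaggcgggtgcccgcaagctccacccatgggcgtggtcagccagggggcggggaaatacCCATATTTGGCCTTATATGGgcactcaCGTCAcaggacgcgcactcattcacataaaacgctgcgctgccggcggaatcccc
Spred2, chr11:19924192-19924441, plus strand: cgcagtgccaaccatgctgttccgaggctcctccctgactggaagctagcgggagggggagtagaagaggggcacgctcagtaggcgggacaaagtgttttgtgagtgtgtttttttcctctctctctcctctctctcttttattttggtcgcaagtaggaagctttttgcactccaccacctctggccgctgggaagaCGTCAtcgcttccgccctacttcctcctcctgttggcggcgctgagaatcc
The complete CRE in Dusp1 begins 143 bases before the start, and a separate short form begins 191 bases before it. Both strands of all 32851 windows of 300 bases were searched, and 1.79% held the complete CRE. Dusp5 held a pair of adjoining serum response elements, beginning 82 and 72 bases before the start. At least 1 such element was found in 1.63% of all windows and in 1 of the 9 members. The share of windows with a pair was not counted. The short form, which overlaps the complete CRE, was in 5 of the 9 members (Dusp1, Dusp2, Dusp5, Dusp16 and Spred2) and in 20.8% of all windows. The ETS core GGAAGT was in Dusp5 and Spred2 and in 23.8% of all windows, while the AP-1 site TGANTCA was in 0 of the 9 and in 7.81% of all windows. These matches describe the letters in the windows, and binding was not measured.

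Estimated depth was 18263006 to 22070865 reads per control library, and 14017971 to 18244213 reads per library of the other group, so that 3 reads, taken as the floor of detection, corresponded to between 0.136 and 0.214 CPM. The floor covers counting error only. Kdm6b ranged from 323 to 628.5 CPM over the controls and from 451 to 656 CPM over the knockout-labelled libraries, a gene-level value that checks neither the labels nor the deletion, so directions rest on the labels. Xist, the RNA of the inactive X chromosome, was at 264 to 455 CPM in the knockout-labelled libraries and at most 0.831 CPM in the controls, and the Y-linked gene Ddx3y was at 117 to 195 CPM in the controls and at most 0.548 CPM in the other group, so the effects of sex and of the label cannot be told apart. All 12 T lineage markers examined, among them Cd3e, Lck and Ptcra, were above 0 in every library, summing to 12999 to 19039 CPM in the controls and 15567 to 18576 CPM in the knockout-labelled libraries. Summed markers of neutrophils, monocytes, natural killer (NK) cells, platelets and red cells overlapped between the groups, while 6 B cell markers summed to 643 to 811 and 825 to 871 CPM, with Ms4a1 and Ebf1 among those at 0 in some libraries. The part of these cells in the results was not tested. In bulk samples, fewer cells of a type and less RNA per cell cannot be told apart.

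None of the feedback genes passed the test between the groups. Spry1 had at least 1 CPM in only 1 library and was left out by the filter of 1 CPM in at least 4 of the 8 libraries, which the other 9 members passed. Dusp4 reached 1 CPM in all 4 controls and in 1 knockout-labelled library, so it passed mainly through the group in which it was higher. Limma with Benjamini-Hochberg adjustment over 13840 genes called 0 of the 9 higher and 0 lower. Of all tested genes it called 3.53%, 1.21% higher and 2.32% lower, so that the count of members does not stand apart from the background. At an unadjusted p below 0.05 there was 1 of 9, against 19.3% of all tested genes. On the log2(CPM + 1) scale 5 members had a higher and 4 a lower mean in the knockout-labelled libraries. The median change of the 9 was 0.18, beside -0.035 for all tested genes. The authors' deposited table of 218 genes changed by at least 2-fold lists 0 of the 10 members. No member reached a 2-fold ratio of means (1.88 for Dusp1 and 0.527 for Dusp4, knockout-labelled over control), so that cut alone leaves them out.

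**Figure D1:**
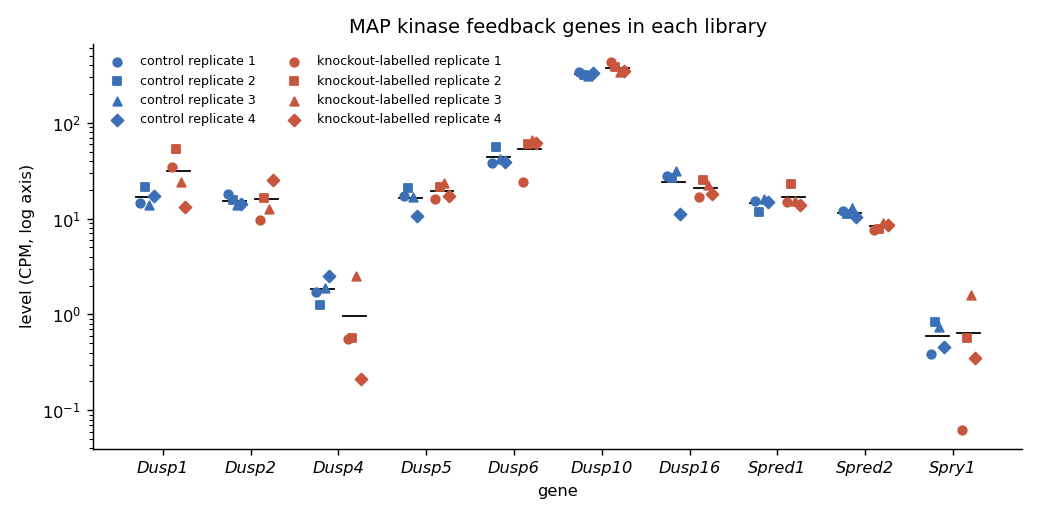
Level of each of the 10 genes in each library, in CPM on a log axis, with controls in blue, knockout-labelled libraries in red, the marker shape giving the replicate and the black line the mean of 4. Dusp10 sits far above the others, at 310.1 to 427 CPM, and Spred2 is the 1 gene whose groups do not overlap.

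The genes spanned a wide range of levels. Per kilobase of exon, from the GENCODE vM21 annotation, Dusp10 was the highest in the controls, at 107 ± 4.57 CPM per kilobase (SD, n = 4), followed by Dusp6 at 14.0 ± 2.73 CPM per kilobase (SD, n = 4). The control ranges of these genes did not overlap each other or those of the genes ranked lower. Dusp2 (7.71 ± 0.945 CPM per kilobase, SD, n = 4), Dusp5 (6.63 ± 1.71) and Dusp1 (5.04 ± 1.0) came next, each neighbour in that order overlapping the following one. Dusp16, Spred2 and Spred1 lay between 3.10 and 2.13 CPM per kilobase, each overlapping the next of these 3, while Dusp16 lay wholly below Dusp1 and Spred1 wholly above Dusp4. Dusp4 was at 0.668 ± 0.188 and Spry1 at 0.207 ± 0.0744 CPM per kilobase (SD, n = 4 each). In the knockout-labelled libraries the first 2, Dusp10 at 123 ± 13.4 and Dusp6 at 16.9 ± 6.14 CPM per kilobase (SD, n = 4 each), kept their ranks, as did the last 2, while Dusp1, ranked below Dusp2 and Dusp5 in the controls, stood above both with a mean of 9.46 ± 5.16 CPM per kilobase (SD, n = 4).

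Among the phosphatases that act in the nucleus, Dusp1 was above every control in 3 of the 4 knockout-labelled libraries and did not pass the test. Dusp1, which inactivates JNK, p38 and ERK, lies on the minus strand of chromosome 17, from 26505590 to 26562128 in GENCODE vM21 (mm10). That gene model starts further upstream than the RefSeq start used for the promoter window. Dusp1 was at 14.5, 21.2, 13.9 and 17.3 CPM in control replicates 1 to 4 and at 34.2, 53.5, 24.3 and 13.3 CPM in knockout-labelled replicates 1 to 4. Knockout-labelled replicates 1 to 3 were above every control, and replicate 4 was below every control, so the groups overlapped. The means were 16.7 ± 3.32 and 31.3 ± 17.1 CPM (SD, n = 4 each), with a log2 change of 0.72 ± 0.33 (SE, limma adjusted p = 0.266) and a 95% interval from -0.011 to 1.46. Without knockout-labelled replicate 2 the log2 change was 0.42, and with array weights, which let limma weight libraries unequally, it was 0.99 and passed the test (adjusted p = 0.0382, against 0.0783 to 0.535 under the other alternatives). In the annotation, exons of Dusp1 overlap Ergic1 on the opposite strand, and without a stated strand setting the reads of the genes cannot be told apart.

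Dusp2, a nuclear phosphatase gene of lymphocytes induced on activation, was at 18.1, 15.6, 14.0 and 14.1 CPM in control replicates 1 to 4. In knockout-labelled replicates 1 to 4 it was at 9.68, 16.3, 12.7 and 25.5 CPM, so that this group held both the lowest and the highest of the 8 values. Its log2 change was -0.026 ± 0.25 (SE, limma adjusted p = 0.970), with a 95% interval from -0.57 to 0.52. Its highest library, knockout-labelled replicate 4, was the one with the lowest Dusp1.

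Dusp4, which acts on ERK and JNK in the nucleus, was close to the limit of detection in part of the libraries. It was at 1.70, 1.25, 1.88 and 2.49 CPM in control replicates 1 to 4, or an estimated 31, 24, 36 and 55 reads. In knockout-labelled replicates 1 to 4 it was at 0.555, 0.571, 2.52 and 0.212 CPM, or 9, 8, 46 and 3 reads, the last at the floor. Replicates 1, 2 and 4 were below every control, and replicate 3 was above every control. Its log2 change was -0.64 ± 0.32 (SE, limma adjusted p = 0.303), with a 95% interval from -1.34 to 0.065. Without knockout-labelled replicate 3 it was -0.96 (adjusted p = 0.0716), and it was -1.28 with a pseudocount of 0.1. Knockout-labelled replicate 3 also had the highest summed level of 6 NK cell markers, at 391 CPM, beside 385 CPM in control replicate 4, and the part of these cells in the Dusp4 level was not tested.

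Dusp5, a phosphatase gene specific to ERK in the nucleus, was at 17.2, 20.7, 17.0 and 10.6 CPM in control replicates 1 to 4. It was at 16.0, 21.4, 23.8 and 17.2 CPM in knockout-labelled replicates 1 to 4, a range that overlapped the controls. Between the groups the log2 change was 0.27 ± 0.21 (SE, limma adjusted p = 0.537), with a 95% interval from -0.20 to 0.73, and without control replicate 4, the lowest library, it was 0.083. An exon of Dusp5 overlaps an unnamed gene model on the opposite strand.

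Dusp6, the phosphatase that acts on ERK in the cytoplasm, was at 38.3, 56.4, 41.8 and 38.6 CPM in control replicates 1 to 4. In knockout-labelled replicates 2 to 4 it was at 60.0, 66.1 and 60.9 CPM, above every control, while replicate 1 was below every control at 24.2 CPM. Over all 8 libraries the log2 change was 0.19 ± 0.28 (SE, limma adjusted p = 0.768), with a 95% interval from -0.43 to 0.80. Without knockout-labelled replicate 1 it was 0.52, still short of the test (adjusted p = 0.146). Knockout-labelled replicate 1, the lowest for Dusp6, was the highest of the 8 libraries for Fos and Jun.

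The phosphatases directed at JNK and p38 differed in level more than between groups. Dusp10 was at 342, 318, 310.1 and 327 CPM in control replicates 1 to 4 and at 427, 385, 337 and 348 CPM in knockout-labelled replicates 1 to 4. Only control replicate 1 lay within the range of the other group. The means were 325 ± 13.9 and 374 ± 40.7 CPM (SD, n = 4 each). The log2 change was 0.20 ± 0.11 (SE, limma adjusted p = 0.354), the smallest error among the members, with a 95% interval from -0.046 to 0.44, that is from 0.969 to 1.36 times the control level on the CPM + 1 scale. Dusp16, which acts mainly on JNK, was at 27.7, 26.4, 31.7 and 11.1 CPM in control replicates 1 to 4. It was at 16.8, 25.5, 22.3 and 18.3 CPM in knockout-labelled replicates 1 to 4, all within the range of the controls. Its log2 change was -0.14 ± 0.28 (SE, limma adjusted p = 0.834), with a 95% interval from -0.76 to 0.48. Control replicate 4 set the lower end of the range, and without it the log2 change was -0.46 (adjusted p = 0.132).

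**Figure D2:**
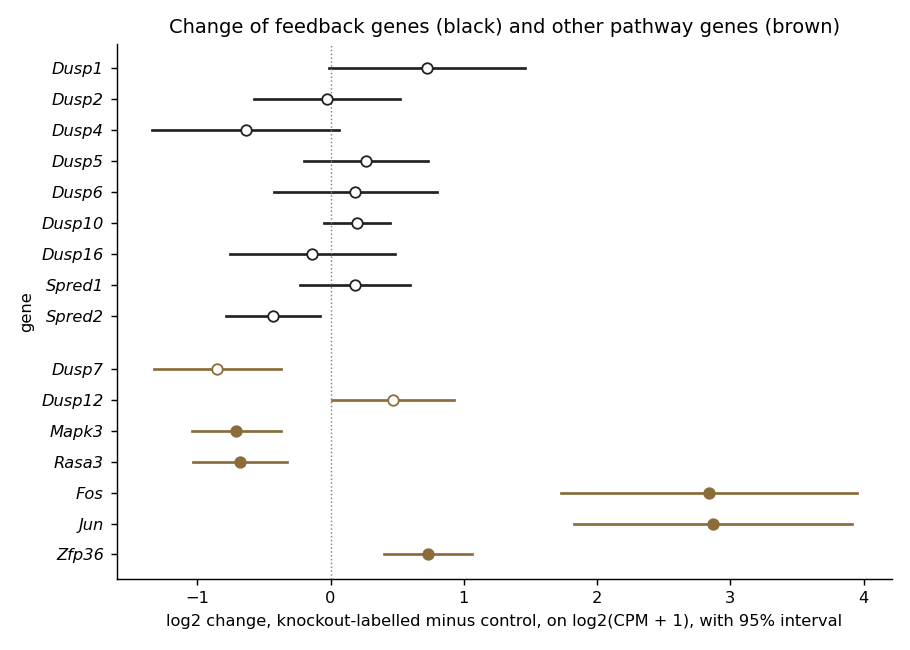
Log2 change on log2(CPM + 1), knockout-labelled minus control, with the 95% interval from limma, for the 9 tested feedback genes in black and for other pathway genes in brown, filled where the adjusted p was below 0.05. The interval of Spred2 is the 1 black interval that does not reach 0, and its circle is open because the adjusted p was 0.170.

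Among the upstream inhibitors, Spred2 was the 1 member whose groups did not overlap, against 13.2% of all tested genes, or 7.97% with the knockout-labelled group lower. Spred2, a membrane-associated protein gene that holds back activation of the RAF kinases by RAS, lies on chromosome 11 from 19924375 to 20024026 in GENCODE vM21 (mm10), a start that falls within the window printed above. Spred2 was at 11.9, 11.2, 12.8 and 10.3 CPM in control replicates 1 to 4 and at 7.65, 7.78, 9.04 and 8.67 CPM in knockout-labelled replicates 1 to 4. Every knockout-labelled library was below every control, and the means were 11.6 ± 1.04 and 8.28 ± 0.681 CPM (SD, n = 4 each). Its log2 change, -0.43 ± 0.16 (SE) with 95% limits of -0.79 and -0.081, missed the test over all genes (limma adjusted p = 0.170, range 0.0524 to 0.355 over the alternatives). The exact two-sided permutation p was 0.0286, the smallest that 70 assignments can give. It is unadjusted, and 13.2% of all tested genes separate in this way.

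Spred1, the relative of Spred2 that recruits the RAS inhibitor neurofibromin to the membrane, was not lower. It was at 15.2, 11.7, 16.0 and 14.8 CPM in control replicates 1 to 4 and at 14.9, 22.8, 15.3 and 14.0 CPM in knockout-labelled replicates 1 to 4. The groups overlapped, with knockout-labelled replicate 2 above all the others. Its log2 change was 0.18 ± 0.19 (SE, limma adjusted p = 0.641), with a 95% interval from -0.23 to 0.60, and without that library it was 0.034. Spry1, an inhibitor of receptor tyrosine kinase and T cell receptor signals, was at 0.383, 0.832, 0.733 and 0.453 CPM in control replicates 1 to 4. In knockout-labelled replicates 1 to 4 it was at 0.0617, 0.571, 1.59 and 0.352 CPM, or an estimated 1, 8, 29 and 5 reads, so replicate 1 was below the floor of detection and replicate 3 was the highest of the 8. An exact two-sided permutation test gave p = 0.943. When limma was fitted with no filter on low values, the log2 change was -0.032 ± 0.24 (SE, adjusted p = 0.966). Changes of such low genes are understated on the log2(CPM + 1) scale, and exons of Spry1 overlap a gene model on the opposite strand.

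Spread within the knockout-labelled group was wide for several of the genes. The coefficient of variation was higher there than in the controls for 6 of the 9 tested members, and for 46.7% of all tested genes. It was 54.5% against 19.9% for Dusp1, 42.7% against 12.3% for Dusp2, 109% against 28.2% for Dusp4 and 36.4% against 19.5% for Dusp6. The highest knockout-labelled library differed between genes. It was replicate 2 for Dusp1 and Spred1, replicate 4 for Dusp2, replicate 3 for Dusp4, Dusp5 and Dusp6, and replicate 1 for Dusp10. For Dusp6 the library that stood apart was the lowest, replicate 1, at 24.2 CPM against 60.0 to 66.1 CPM in the rest of the group. Spred2, Dusp5 and Dusp16 went the other way, with coefficients of 8.22%, 18.5% and 19.1% in the knockout-labelled libraries against 9.02%, 25.8% and 37.2% in the controls.

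Genes related to these inhibitors by pathway or by family were counted in the same fit. Among 13 tested genes for other phosphatases and for Sprouty and Spred relatives, 0 rose and 0 fell (median log2 change -0.037). The share called over all tested genes was 3.53%, so this count does not stand apart from the background. At an unadjusted p below 0.05 there were 3 of the 13, against 19.3% of all tested genes. The list includes atypical dual-specificity phosphatases, so it is not a list of MAP kinase phosphatases alone. Dusp7, another ERK phosphatase of the cytoplasm, was lowest by p, with means of 7.35 ± 1.36 CPM for controls and 3.67 ± 1.10 CPM for knockout-labelled libraries (SD, n = 4 each; log2 change -0.85 ± 0.22, limma adjusted p = 0.0601). Its adjusted p was below the threshold in 4 of 17 alternatives, down to 0.0180. Dusp12, an atypical dual-specificity phosphatase gene, was at 6.86 ± 1.80 and 9.69 ± 1.27 CPM (SD, n = 4 each; adjusted p = 0.251).

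In the kinase cascade itself 1 of 25 tested genes fell and 0 rose, against 3.53% of all tested genes (median log2 change -0.049). It was Mapk3, which encodes ERK1, at 19.2, 17.5, 19.9 and 19.3 CPM in control replicates 1 to 4 and at 9.87, 12.1, 12.7 and 10.4 CPM in knockout-labelled replicates 1 to 4. Every knockout-labelled library was below every control (log2 change -0.71 ± 0.15, SE, limma adjusted p = 0.0304). The call was lost in 6 of 17 alternatives, 5 of which left out a library, namely control replicate 1, control replicate 3 and knockout-labelled replicates 1, 2 and 4 in turn (adjusted p up to 0.0971). Among 19 tested activators and brakes of RAS, 1 fell and 0 rose, again against 3.53% of all tested genes (median log2 change 0.070). It was Rasa3, which encodes a GTPase-activating protein that switches RAS and RAP proteins off, from 72.7 ± 7.78 to 45.5 ± 9.31 CPM (SD, n = 4 each; log2 change -0.68 ± 0.16, SE, limma adjusted p = 0.0429). Its call was lost in 10 of 17 alternatives, which were both other scalings, no filter, no variance trend and leaving out any 1 library other than control replicate 4 and knockout-labelled replicate 3 (adjusted p up to 0.129).

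**Figure D3:**
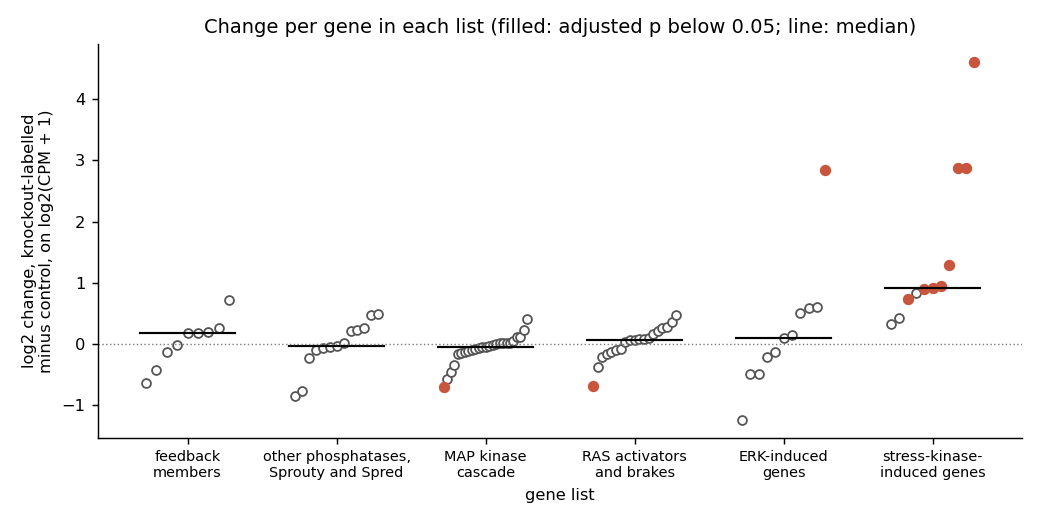
Log2 change of each tested gene on log2(CPM + 1), knockout-labelled minus control, in the feedback genes and 5 other lists, with red filled circles for an adjusted p below 0.05 and a black line at the median. Red circles stand in the stress-kinase-induced list for 8 of 11 genes, in the cascade, RAS and ERK-induced lists for 1 gene each, and in the feedback genes for 0. The list labelled stress-kinase-induced also holds genes induced by other stress, as by heat shock.

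A pair of further lists was counted, the first of genes known to be induced through ERK and the second of genes induced by stress. Of 11 tested genes induced through ERK, 1 rose and 0 fell, against 1.21% of all tested genes called higher and 2.32% called lower (median log2 change 0.089). At an unadjusted p below 0.05 there were 6, against 19.3% of all tested genes. Of these, Fos, Egr2, Nr4a1 and Cd69 were higher in the knockout-labelled libraries, while Myc (log2 change -1.24) and Phlda1 (-0.50) were lower. Myc was at 292 CPM in control replicate 4 and at 47.9 to 79.7 CPM in the other controls, so 1 library raised its control mean. It was at 25.6 to 46.6 CPM in the knockout-labelled libraries. The 1 gene called higher was Fos, a subunit gene of the transcription factor AP-1. The second list holds genes induced by stress, through the stress kinases or otherwise, as by heat shock. It was chosen with changes in these libraries known and so is no independent evidence of direction. Of its 11 tested genes, 8 rose, against 1.21% of all tested genes, and 0 fell (median log2 change 0.91). They included Jun, the partner of Fos in AP-1, the chaperone genes Hspa1a and Hspa1b, and Zfp36, a gene for an mRNA-destabilising protein, at 528 ± 100.2 and 871 ± 94.3 CPM in the 2 groups (SD, n = 4 each; limma adjusted p = 0.0252). The call of Zfp36 ended in 6 of 17 alternatives, which left out control replicate 1, control replicate 3 or any of the knockout-labelled libraries (adjusted p up to 0.0908). Hspa1a was at 5.24 to 86.0 CPM and Hspa1b at 2.13 to 18.5 CPM in the knockout-labelled libraries, and in the controls their means were 0.125 and 0.0409 CPM, under the floor of detection. Both passed the filter through the group in which they were high, so they could come out only higher, and with a filter of 1 CPM in all 8 libraries, which leaves them out, the count of 8 was 6. Their near-identical sequences make the split of reads between them uncertain. The count of 8 was 1 without knockout-labelled replicate 2, and 2, 3, 3, 4 and 4 without control replicates 1 and 3 and knockout-labelled replicates 1, 3 and 4.

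Dusp1 is itself an immediate early gene, and it was compared with Fos and Jun library by library. In knockout-labelled replicates 1 to 4, Jun was above the control mean by 3.91, 3.87, 2.44 and 1.27 on the log2(CPM + 1) scale. Fos was above it by 4.20, 3.73, 1.92 and 1.51. Dusp1 differed from its control mean by 1.01, 1.64, 0.54 and -0.29 in the same libraries. All 3 genes were therefore higher in replicates 1 and 2 than in 3 and 4, and in each library Dusp1 moved by less than either of the others. The change of Fos exceeded that of Dusp1 by 2.12 and the change of Jun by 2.15, with no overlap between the groups in either difference (exact two-sided permutation p = 0.0286 for each and after adjustment over these 2 tests, the smallest that 70 assignments can give). This pair of tests was chosen after the values were seen, with Fos and Jun already separated between the groups on their own. The p-values are therefore no independent evidence of a difference from Dusp1. Leaving out knockout-labelled replicate 2 ended the calls of Jun (limma adjusted p = 0.0507) and Fos (adjusted p = 0.0663), and leaving out control replicate 1 ended that of Fos (adjusted p = 0.0546). Among the list genes named here, exons of Jun, Junb, Zfp36, Hspa1a, Phlda1 and Dusp12 overlap genes or gene models on the opposite strand.

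**Figure D4:**
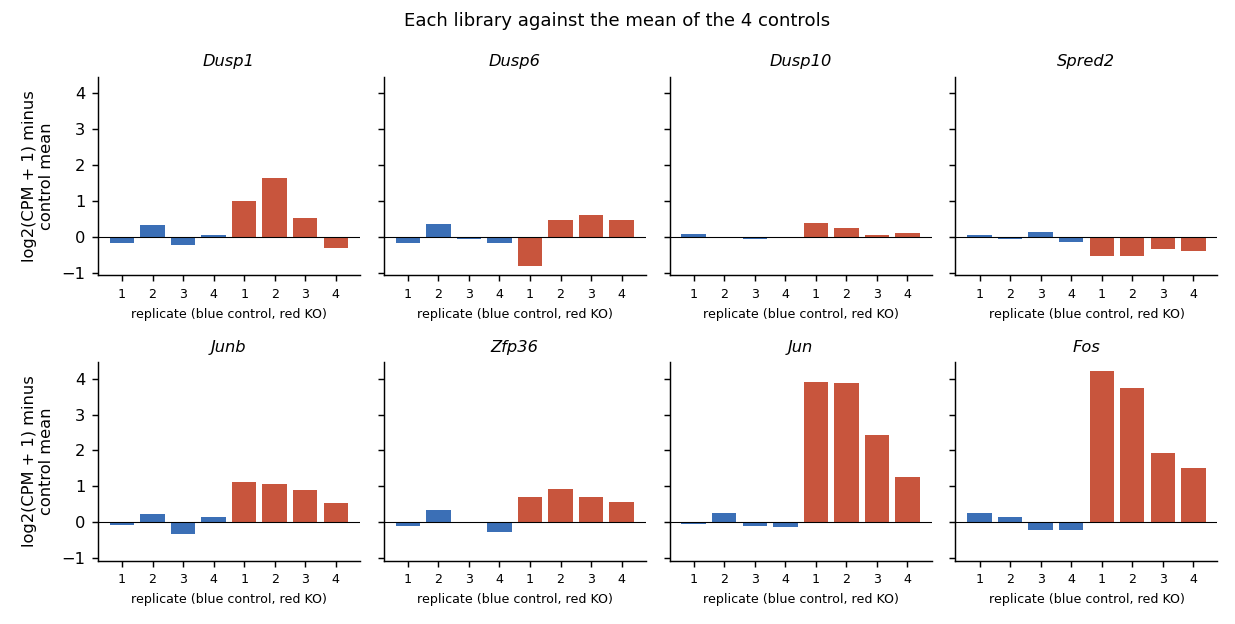
Bars give log2(CPM + 1) in each library minus the mean of the 4 controls, for 4 feedback genes in the upper row and 4 immediate early genes in the lower row, with controls in blue and knockout-labelled libraries in red. The red bars of Jun and Fos reach 3.91 and 4.20, those of Dusp1 run from -0.29 to 1.64, and all 4 red bars of Spred2 lie below 0.

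The genes with the profile most like that of Spred2 over the 8 libraries were Wbp2, Zbtb26 and Art4, with Pearson correlations of log2(CPM + 1) of 0.981, 0.979 and 0.977. For Dusp1 they were Zfp94, Sf1 and Atp8a2, at 0.940, 0.928 and 0.928. With each group centred on its own mean they were other genes, Thap2, Brcc3 and Klhl11 for Spred2 (0.992, 0.970 and 0.966) and Tmem201, Actn4 and Foxk1 for Dusp1 (0.978, 0.971 and 0.960). These are descriptions of the closest among 13840 profiles, less those of predicted loci (Gm number or Rik names), which were left out. The 8 libraries share depth and group differences.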

How the data were processed

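Per the labels' protocols, the kits were NucleoSpin RNA XS for extraction and SMARTer Ultra Low RNA for the libraries. STAR 2.7.3a, Partek 10.0.22.0524 and the build mm10 are named in the submitters' processing notes. For the gene counter, the strand setting and the annotation release, the sources used here say nothing. The authors deposited CPM values for 20888 genes, each with 0.0001 added, and a list of 218 genes with mean CPM as signal per group and a score, the signed linear fold.

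Depth was estimated from the most common value above 0, which is what 1 read is worth. Between 65.4% and 67.1% of values were whole reads within 0.02 reads, so no count model was used. Genes reaching 1 CPM in 4 or more libraries were tested with limma 3.58.1 (R 4.3.3, lmFit, eBayes with trend) on log2(CPM + 1), two-sided, with Benjamini-Hochberg adjustment and a threshold of 0.05. The fit was tested on simulated data. Permutation tests used scipy 1.17.1. Exon lengths and overlaps came from GENCODE vM21 (mm10), which may differ from the annotation behind the counts.

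The members, the 5 other lists and the marker lists were chosen with earlier results of these data known. Genes named are all members, Kdm6b, up to 4 called genes of each list (if a list had no call, the 2 of lowest p), and the 3 closest profiles of the 2 members with the lowest p. Outside this rule are the other ERK-induced genes at an unadjusted p below 0.05, Junb in a figure, genes on the opposite strand, and sex and cell type markers. No per-sample column was left out. Alternatives were the pseudocount, the filter, the scaling, the variance trend, array weights, a replicate block and leaving out each library.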

Additional observations from a re-analysis of the deposited data

Results flagged for a closer look

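In groups of 4 libraries, a library was picked out where its gap to the nearest other, divided by the range of the group on log2(CPM + 1), was above Dixon's 95% critical value. Of 40 groups examined 4 were picked out, and chance picks out about 1 in 20.

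Dusp6 in knockout-labelled replicate 1 was the lowest of its group (ratio 0.902), at 24.2 CPM against 60.0 to 66.1 CPM in the other 3. Dusp7 in knockout-labelled replicate 3 was the highest of its group (ratio 0.905), at 5.32 CPM against 3.03 to 3.21 CPM. Hspa1a in control replicate 2 was the highest of the controls (ratio 0.936), at 0.477 CPM against 0 to 0.0252 CPM. Kdm6b in knockout-labelled replicate 4 was the lowest of its group (ratio 0.844), at 451 CPM against 618 to 656 CPM. Knockout-labelled replicate 4 was also the lowest of the 8 libraries for Dusp1 and Dusp4.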

How the results depend on the processing

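Over 17 alternatives the number of members called was 0 except with array weights, where it was 1, Dusp1. It was 0 to 0 with single libraries left out. Over all genes 488 were called, 1313 with array weights and 81 to 670 with single libraries left out. Quantile normalization moved the share of lower calls, from 321 of 488 to 237 lower beside 188 higher, and rescaling by the median ratio gave 240 lower and 190 higher. The direction of Dusp2, near 0, turned with quantile normalization (0.052) and median ratio rescaling (0.014), and its log2 change ran from -0.27 to 0.17 with single libraries left out. That of Dusp16 ran from -0.46 to 0.018, turning when control replicate 3 was left out. The other 7 tested members kept their direction in every alternative that tested them. In the lists, other phosphatases had 0 calls, 1 without a variance trend, 1 with array weights and 0 to 1 with single libraries left out. The kinase cascade had 1 call, 2 with array weights and 0 to 2 with libraries left out. RAS control had 1 call, 0 with no filter, with quantile normalization, with median ratio rescaling and without a trend, 2 with array weights and 0 to 1 with libraries left out. ERK-induced genes had 1 call, 3 with array weights and 0 to 2 with libraries left out. The list of stress-induced genes had 8 calls, 5 with no filter and 1 to 8 with libraries left out. The causes were not tested.

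The replicate numbers share no stated origin, and the deviations of same-numbered libraries correlated at 0.15, 0.07, -0.10 and 0.18, so the numbers were not read as pairs. With the replicate block 509 genes and 0 members were called, 0 of the kinase cascade and 2 ERK-induced genes, and 4 of the 8 libraries correlated best with the library of their own number in the other group. Depth limits Dusp4 and Spry1, which rested on as few as 3 and 1 reads in a library.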
